A study of Mus musculus with 6 samples.

Results

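Desmosomes join neighbouring keratinocytes, and 10 of their genes were followed through the p65 peak lists of mouse epidermal cells: Dsp, Jup, Pkp1, Pkp3, Dsc1, Dsc2, Dsc3, Dsg3, Perp and Cdsn. These 10 of 21000 protein-coding genes were chosen as parts of the junction, by a choice made with earlier results of these data known. A peak was assigned to a gene when the transcription start nearest to the middle of the peak belonged to that gene in the mm10 RefSeq annotation, and a gene with at least 1 assigned peak was called bound. Peaks within 50 kb of a start were listed as well, whatever their nearest gene.

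p65, encoded by Rela, is the transactivating subunit of canonical NF-κB, and chromatin immunoprecipitation followed by sequencing (ChIP–seq) maps where it sits on DNA. The study asked where p65 binds in the epidermis of adult and aged C57BL/6J mice, and what a blockade of IL-17A and IL-17F does to this binding in aged mice. Untreated adult mice of 17 to 25 weeks formed the adult group. Aged mice of 80 to 90 weeks had received intraperitoneal injections of either a control IgG (the aged/IgG control group, aged/IgG for short) or neutralizing antibodies to IL-17A and IL-17F (the aged/anti-IL-17A/F group, aged/anti-IL-17 for short) over 12 weeks, beginning at 73 weeks. The labels name no allele or transgene beside the strain. Trypsin separated the epidermis from the dermis, and the reads of 4 mice were merged into 1 pool per condition, so there were no replicates and no test between conditions. Cells other than keratinocytes can be part of such a suspension. The lists hold no expression, so the cell type could not be checked against its markers, and a smaller share of one cell type cannot be told apart from less binding per cell.

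The lists held 8525 peaks for adult, 4169 for aged/IgG and 6014 for aged/anti-IL-17. For each peak they give the authors' fold enrichment, a ratio of the signal to the local background, and the −log10 of a q value. One label is in doubt: all 8525 peaks of the list labelled adult carry names that begin with "Treated", as do those of the aged/anti-IL-17 list, whereas names in the aged/IgG list begin with "Control". The list is called adult here after its sample label. With both lists exchanged, 18 in place of 24 peaks at the 10 genes would be adult peaks, and the genes with a peak in adult that aged/IgG lacks would be Dsp, Dsc1 and Dsc3 in place of Dsp, Dsc1 and Cdsn. Each value given for adult would then be one of aged/anti-IL-17, and the reverse. Statements on aged/IgG alone, and on whether a site is in all lists, do not depend on this label.

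A desmosome is a button-like junction that ties the keratin filaments of adjacent cells together. Desmosomal cadherins, the desmogleins and desmocollins, meet between the cells, the armadillo proteins plakoglobin and plakophilin bind their tails inside the cell, and desmoplakin anchors this plaque to keratin. In the cornified layer the junction becomes the corneodesmosome, to which corneodesmosin is added and which proteases cut when corneocytes are shed.

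p65 peaks were assigned to 7 of 10 genes in adult (95% Wilson interval 39.7% to 89.2%), to 4 of 10 in aged/IgG (16.8% to 68.7%) and to 7 of 10 in aged/anti-IL-17 (39.7% to 89.2%). Among all protein-coding genes the bound share was 23.0% in adult, 12.9% in aged/IgG and 17.4% in aged/anti-IL-17. Jup, Pkp1, Pkp3 and Perp were bound in every list, Dsp and Dsc1 in adult and aged/anti-IL-17, Cdsn in adult alone and Dsc3 in aged/anti-IL-17 alone, and neither Dsc2 nor Dsg3 had a peak. All these intervals cover counting error only.

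Sequences around peak summits are shown first, since the results below refer to them. Each is 121 bases of the RefSeq assembly of mm10 (GRCm38), plus strand, 5′ to 3′, centred on a summit and outside all RefSeq exons. NF-κB dimers bind a palindrome-like element that opens with a run of G, goes on with a purine, any base, A or T and a pair of pyrimidines, and closes with a pair of C. Capitals in the first set mark matches to this element on either strand. It comprises the only sites at these genes with a match within 100 bp of a summit, namely the distal Perp site and the upstream Pkp1 site (adult summits) and the intronic Pkp3 site (aged/anti-IL-17 summit).
Perp, chr10:18868986-18869106: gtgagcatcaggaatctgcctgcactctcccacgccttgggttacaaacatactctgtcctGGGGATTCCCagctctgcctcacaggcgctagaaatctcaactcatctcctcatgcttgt
Pkp1, chr1:135929961-135930081: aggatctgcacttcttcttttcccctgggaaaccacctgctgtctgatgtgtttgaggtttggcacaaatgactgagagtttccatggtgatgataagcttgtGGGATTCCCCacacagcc
Pkp3, chr7:141087839-141087959: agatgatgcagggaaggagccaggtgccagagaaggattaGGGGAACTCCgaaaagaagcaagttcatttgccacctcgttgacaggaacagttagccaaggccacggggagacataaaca

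The second set holds sites at which p65 peaks stood without the element within 100 bp of the summit. The Pkp1 and Pkp3 windows lie at the strongest sites of these genes in the adult list. The Dsp and Cdsn windows lie at peaks that have no counterpart in aged/IgG, the Dsp window upstream of the start being from aged/anti-IL-17 and the others from adult.
Pkp1 intron, chr1:135916793-135916913: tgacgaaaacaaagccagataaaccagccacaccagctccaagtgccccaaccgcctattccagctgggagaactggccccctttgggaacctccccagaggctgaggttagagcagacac
Pkp3 promoter, chr7:141078833-141078953: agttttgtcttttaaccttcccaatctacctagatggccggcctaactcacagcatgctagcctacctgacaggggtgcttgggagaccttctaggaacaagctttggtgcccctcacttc
Dsp intron, chr13:38152552-38152672: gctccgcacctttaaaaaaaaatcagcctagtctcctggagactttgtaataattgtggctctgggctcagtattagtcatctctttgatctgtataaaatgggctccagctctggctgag
Dsp upstream, chr13:38150870-38150990: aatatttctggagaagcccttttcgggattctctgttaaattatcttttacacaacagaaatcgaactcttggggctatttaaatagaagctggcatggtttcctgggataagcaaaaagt
Cdsn intron, chr17:35549814-35549934: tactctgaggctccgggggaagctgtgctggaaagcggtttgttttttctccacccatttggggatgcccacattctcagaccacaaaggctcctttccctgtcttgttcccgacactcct

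A further set shows windows with a match to TGANTCA, the element of the AP-1 family, near the summits of the aged/anti-IL-17 list. Capitals here mark that match.
Jup promoter, chr11:100398138-100398258: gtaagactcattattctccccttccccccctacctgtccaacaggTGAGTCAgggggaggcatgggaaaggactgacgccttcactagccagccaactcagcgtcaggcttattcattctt
Perp promoter, chr10:18844933-18845053: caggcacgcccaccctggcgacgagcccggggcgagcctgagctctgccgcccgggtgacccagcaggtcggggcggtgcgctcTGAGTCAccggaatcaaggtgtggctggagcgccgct
Pkp1 intron, chr1:135906893-135907013: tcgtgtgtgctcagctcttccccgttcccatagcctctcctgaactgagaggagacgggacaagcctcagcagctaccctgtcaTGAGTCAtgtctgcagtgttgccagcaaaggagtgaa

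**Figure D1:**
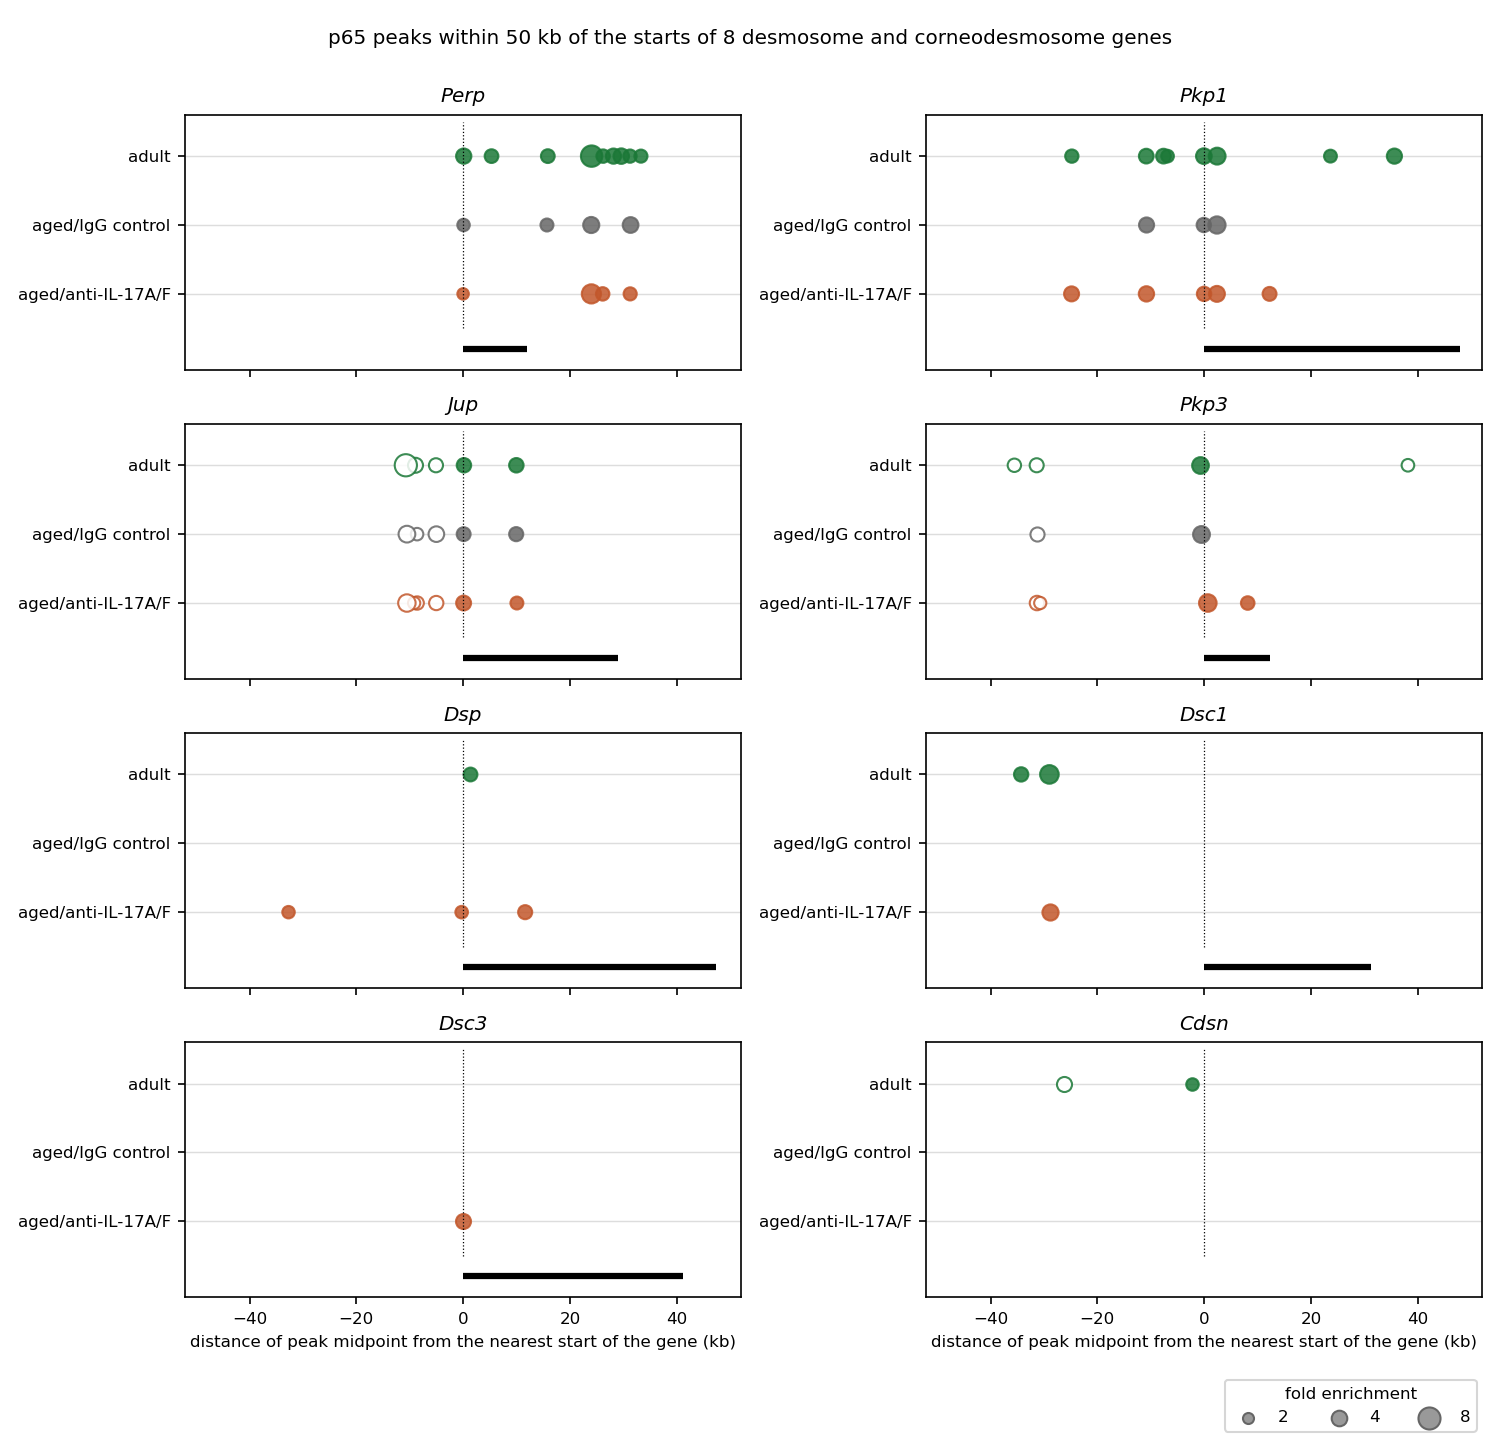
p65 peaks within 50 kb of the starts of the 8 genes with at least 1 assigned peak. The x axis is the distance of the peak midpoint from the nearest start of the gene in kb, positive in the direction of transcription, each row is 1 condition, the circle area is proportional to fold enrichment, filled circles are peaks assigned to the gene, open circles are peaks nearer to another gene, and the black bar is the gene body (not drawn for Cdsn, whose starts lie apart). Perp and Pkp1 have 9 and 8 peaks in adult, and the aged/IgG rows of Dsp, Dsc1, Dsc3 and Cdsn are empty, as are the adult row of Dsc3 and the aged/anti-IL-17 row of Cdsn.

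Dsp encodes desmoplakin, the plakin that links the desmosomal plaque to keratin filaments. In adult it had 1 peak, in an intron 1270 bp downstream of the start (chr13:38152369-38152760), with 3.14-fold enrichment and −log10 q 9.16. No peak was assigned to Dsp in aged/IgG, where the nearest peak lay 484565 bp from the start. In aged/anti-IL-17 it had 3 peaks. One lay 286 bp upstream of the start (chr13:38150859-38151158) with a fold enrichment of 2.61, one 32695 bp upstream (chr13:38118441-38118758) with 2.56, and one in an intron 11599 bp downstream (chr13:38162731-38163055) with 3.27. Their −log10 q values were 4.34, 4.96 and 9.47. None of the 3 overlapped the adult peak, so that Dsp was bound in both lists at different positions. All Dsp peaks were weak for their lists: the adult peak stood at percentile 32.7 of fold enrichment, the share of peaks in its list with a lower value, and the aged/anti-IL-17 peaks, in the order given, at percentiles 8.02, 6.59 and 35.6. Under a −log10 q minimum of 10, Dsp had no peak in any list.

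Jup encodes plakoglobin, an armadillo protein that binds the tails of desmosomal cadherins and also those of classical cadherins. It had 2 peaks in each list, at the same 2 sites. The first spanned the start and was broad, with a width of 1517 bp in adult, 1361 bp in aged/IgG and 1399 bp in aged/anti-IL-17. Fold enrichment there was 3.44 in adult, 3.19 in aged/IgG and 3.67 in aged/anti-IL-17. The second lay in an intron 9948 bp downstream (adult peak chr11:100387500-100388185), with 3.46, 3.29 and 2.76 in the same order. At the intron site the percentiles were 44.9, 30.6 and 13.6, and no Jup peak stood above percentile 49.6 of its list.

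Peaks nearer to other genes also stood close to Jup. The strongest, 10738 bp upstream of the Jup start in adult (chr11:100408033-100409024), was nearest to P3h4 and reached a fold enrichment of 8.11 in adult, 4.61 in aged/IgG and 5.0 in aged/anti-IL-17. It held the NF-κB element within 100 bp of the summit in each list. A nearest-start rule thus left the strongest p65 peak within 50 kb of Jup with another gene, and which gene it acts on was not measured.

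Pkp1 encodes plakophilin 1, a plaque protein of the upper epidermal layers that clusters desmosomal cadherins and desmoplakin. It had 8 peaks in adult, 3 in aged/IgG and 5 in aged/anti-IL-17. Few bound genes had as many in adult: 19 of 4836 (0.393%) had at least 8, against a median of 1. In the shorter lists the share with at least as many as Pkp1 was 6.47% in aged/IgG and 1.48% in aged/anti-IL-17. Of the Pkp1 sites, 3 were in all lists. In an intron 2417 bp downstream of the start (adult peak chr1:135916490-135917091), fold enrichment was 4.71 in the adult list, 4.90 in aged/IgG and 4.19 in aged/anti-IL-17. At the promoter (adult peak chr1:135919056-135919487) it was 4.04, 3.40 and 3.42 in that order. At 10845 bp upstream (adult peak chr1:135929843-135930261), the site whose window above carries GGGATTCCCC at chr1:135930064-135930073, it was 3.57, 3.76 and 3.87. The aged/IgG value was thus the highest at 1 of these sites, between the others at 1 and the lowest at 1.

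The other Pkp1 peaks were in adult or aged/anti-IL-17 but not in aged/IgG. A site 24778 bp upstream had a fold enrichment of 2.92 in adult and 3.71 in aged/anti-IL-17. Found in adult alone were sites 6854 bp and 7619 bp upstream, with 2.63 and 3.57, and intronic sites 23636 bp and 35604 bp downstream, with 2.73 and 3.78. In aged/anti-IL-17 alone there was an intronic site 12234 bp downstream with 3.19, the AP-1 window above, with TGAGTCA 27 bp from its summit. These peaks reached at most percentile 55.9 of their list, whereas the sites in all lists ran up to percentile 73.8.

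Pkp3 encodes plakophilin 3, a plaque protein of all living epidermal layers. One site lay in all lists, in an intron 699 bp upstream of the nearer of its 2 starts (adult peak chr7:141078542-141079598). Fold enrichment was 4.61 in the adult list, 4.69 in aged/IgG and 5.09 in aged/anti-IL-17, and the summits lay within 16 bp of each other, the closest of all sites in more than 1 list. The peak held GGGACTTCCC on the minus strand at chr7:141078782-141078791, 106 to 122 bp from the summits and so just outside the window searched. In aged/anti-IL-17 a second peak lay in an intron 8145 bp downstream (chr7:141087748-141088081), with a fold enrichment of 3.02 and the element GGGGAACTCC 15 bp from the summit. Within 50 kb, further peaks were nearer to B4galnt4 in each list and, in adult, to Ano9.

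Dsc1, Dsc2, Dsc3 and Dsg3 encode desmosomal cadherins and lie in 1 cluster on chromosome 18. Desmocollin 1 belongs to the upper layers, whereas desmocollin 3 and desmoglein 3, the pemphigus vulgaris antigen, are the cadherins of the basal side. Dsc1 had 2 peaks in adult and 1 in aged/anti-IL-17, all upstream of the gene. The stronger, 28974 bp upstream (chr18:20143477-20144018), had 5.71-fold enrichment with −log10 q 33.9 in adult, and its counterpart in aged/anti-IL-17 had 4.30 and 19.2. In aged/IgG the nearest peak was 44157 bp away from it. This was the peak at the 10 genes with the largest fold enrichment that had no counterpart in aged/IgG: it stood at percentile 82.6 of the adult list, in a decile of which 93.4% of the peaks overlapped one in aged/IgG. It was singled out for this, and with the labels exchanged the adult peak would be the one of 4.30. That peak stood at percentile 65.1, in a decile of which 77.2% overlapped one in aged/IgG. The second adult peak, 34260 bp upstream (chr18:20148864-20149202), had 3.39 and was in adult alone.

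Dsc3 had 1 peak, in aged/anti-IL-17, 118 bp upstream of the start (chr18:20001998-20002432), with 3.72-fold enrichment and −log10 q 15.1. The nearest adult peak was 141650 bp from the start and the nearest in aged/IgG 186280 bp. The start of Dsc2 had its nearest peak at 84193 bp in adult, 128823 bp in aged/IgG and 57339 bp in aged/anti-IL-17. Dsg3 also had no assigned peak, and the nearest ones, at 44803, 44805 and 44064 bp, were assigned to Dsg2, the adjacent desmoglein gene. A start without an assigned peak says only that none passed the peak caller's threshold there. The 121-base windows of these chromosome 18 peaks are not shown.

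Perp encodes a tetraspan membrane protein of desmosomes that is a target of p63 in stratified epithelia. With 9 peaks in adult, 4 in aged/IgG and 4 in aged/anti-IL-17, it had the most peaks of the 10 genes in the adult and aged/IgG lists, and 11 of 4836 bound genes in adult (0.228%) had at least as many. In the shorter lists that share was 2.22% in aged/IgG and 3.48% in aged/anti-IL-17. The strongest site lay 24037 bp downstream of the start, beyond the 3′ end of the gene (adult peak chr10:18868789-18869427). Fold enrichment there was 7.53 in adult, 4.28 in aged/IgG and 6.06 in aged/anti-IL-17, at percentiles 91.4, 62.3 and 84.8. The adult peak was the only one at the 10 genes in the top decile of its list. GGGGATTCCC, the element in capitals in the first window above, lay at chr10:18869047-18869056, 6 bp from the adult summit, 1 bp from that of aged/IgG and 11 bp from that of aged/anti-IL-17.

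Around this site the lists differed. At 31225 bp downstream, fold enrichment was 2.90 in the adult list, 4.08 in aged/IgG and 2.84 in aged/anti-IL-17, so that aged/IgG had the highest value here and the lowest at the stronger site. The ratio of aged/IgG to adult was 1.41 here, above that of 98.3% of the 3502 adult peaks found in all lists, and 0.569 at the stronger site, above that of 9.37%. At the promoter (adult peak chr10:18844817-18845519) the values were 3.84, 2.57 and 2.18, and the ratio of aged/anti-IL-17 to adult, 0.567, exceeded that of 4.31% of shared peaks. With the doubted labels exchanged, adult would have 2.18 here and aged/anti-IL-17 3.84, so that this ratio and its rank would turn. The promoter window above has TGAGTCA 27 bp from the aged/anti-IL-17 summit.

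Of the remaining Perp sites, the one 15839 bp downstream was in adult and aged/IgG, with 3.12 and 2.78, and the one 26190 bp downstream in adult and aged/anti-IL-17, with 2.97 and 2.98. A further 4 were in adult alone, at 5302, 28127, 29589 and 33269 bp, with fold enrichments of 3.10, 3.80, 3.95 and 2.83. Downstream of Perp the next protein-coding gene is Tnfaip3, the NF-κB feedback inhibitor A20. Of the peaks assigned to Perp, those from the strongest site onward lay 133623 to 142925 bp from its start, so that Perp was the nearer gene by a wide margin. The target of these sites was not measured.

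Cdsn encodes corneodesmosin, the glycoprotein added to desmosomes as keratinocytes cornify. It had 1 peak, in adult, in an intron 2269 bp upstream of the nearer of its 2 starts (chr17:35549690-35550029). The fold enrichment was 2.58 and the −log10 q 5.78, at percentile 8.59 of the adult list. The nearest peaks of aged/IgG and aged/anti-IL-17 lay 110223 and 110220 bp away. A second adult peak within 50 kb was nearest to Tcf19. The absence of a Cdsn peak in the other lists rests on 1 of the weaker adult peaks, and under a −log10 q minimum of 10 Cdsn had none in adult either.

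**Figure D2:**
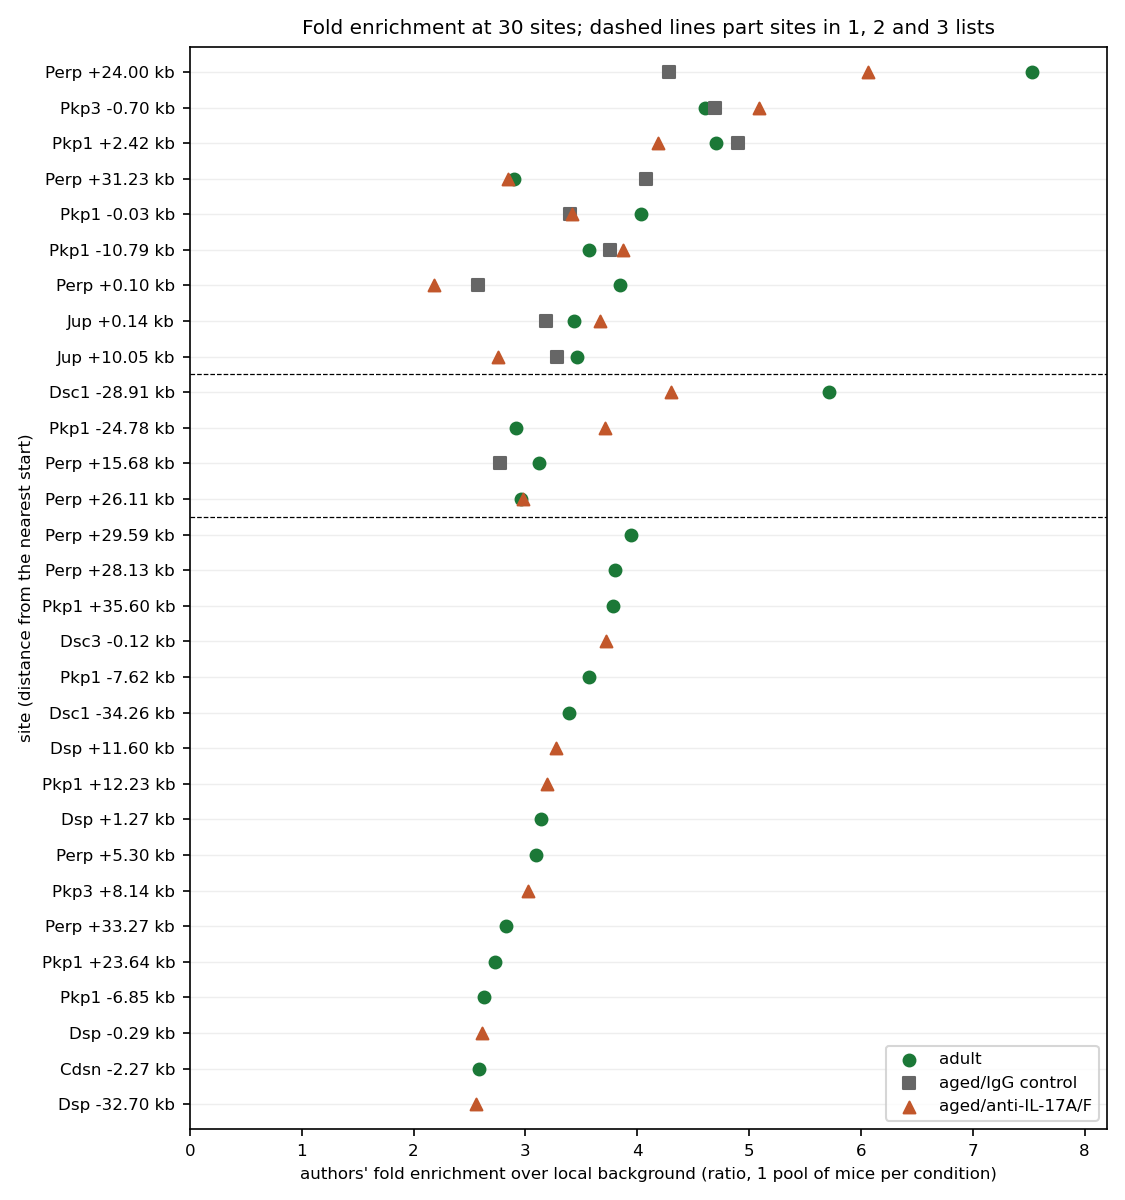
Fold enrichment at each of the 30 sites of the 10 genes. Each row is 1 site, named by gene and distance from the nearest start in kb, the x axis is the authors' fold enrichment (a ratio), each point is 1 list of 1 pool of mice with no error to show, and a missing symbol means that no peak was called. Of the 30 sites, 9 are in all lists, 11 in adult alone and 6 in aged/anti-IL-17 alone, and the distal Perp site has the largest values for adult and aged/anti-IL-17. Over the whole adult list, 3502 of 8525 peaks are in all lists.

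Merged over the lists, the assigned peaks formed 30 sites: 24 peaks in adult, 10 in aged/IgG and 18 in aged/anti-IL-17. Of these sites, 9 were in all lists, 3 in adult and aged/anti-IL-17, 1 in adult and aged/IgG, 11 in adult alone, 6 in aged/anti-IL-17 alone and 0 in aged/IgG alone. Over whole lists, 3502 of the 8525 adult peaks were in all lists, and 93.3% of the aged/IgG peaks overlapped an adult peak. At the 13 sites in more than 1 list, the summits lay 16 to 196 bp apart, with a median of 85 bp, and at 8 of them within 100 bp. Within 50 kb of a start there were 33, 16 and 27 peaks in adult, aged/IgG and aged/anti-IL-17, of which 9, 6 and 9 were nearest to another gene. These counts had the same order as the lengths of the lists. With each list cut to the 4169 peaks of highest fold enrichment, adult kept 9 assigned peaks and aged/anti-IL-17 11, against 10 in aged/IgG. The bound genes then numbered 4 in adult, 4 in aged/IgG and 7 in aged/anti-IL-17, against 13.1%, 12.9% and 13.0% of all protein-coding genes. With the doubted labels exchanged they would number 7 in adult and 4 in aged/IgG, so that the equal count of this pair rests on the label. The 4 bound in adult were then Dsc1, Pkp1, Pkp3 and Perp, so that Dsc1 kept a peak in adult alone of the pair under this cut as well, whereas Dsp and Cdsn had none in adult and Jup was bound in aged/IgG alone of the pair. With only peaks up to 10000 bp from a start, Dsc1 was unbound in every list, and the bound genes numbered 6 in adult, 4 in aged/IgG and 6 in aged/anti-IL-17, against 17.4%, 8.72% and 12.1% of all protein-coding genes. Under a −log10 q minimum of 10 they numbered 5, 4 and 6, against 16.7%, 9.63% and 12.9%.

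Sharing between lists was read beside that of all peaks, since a long list contains more of a short one than the reverse. Of the 24 adult peaks, 10 overlapped a peak in aged/IgG (41.7%, 95% Wilson interval 24.5% to 61.2%), against 45.5% of all adult peaks. In aged/anti-IL-17 12 had a counterpart (50%, 31.4% to 68.6%), against 60.4%. All 10 aged/IgG peaks overlapped an adult peak (72.3% to 100%), against 93.3%, and 9 overlapped one in aged/anti-IL-17 (59.6% to 98.2%), against 86.6%. Of the 18 aged/anti-IL-17 peaks, 12 overlapped an adult peak (66.7%, 43.8% to 83.7%), against 85.6%, and 9 overlapped one in aged/IgG (50%, 29.0% to 71.0%), against 59.9%. In 5 of these 6 comparisons the share over all peaks lay within the interval. The exception was aged/anti-IL-17 against adult, in which the interval ended just below the share of all peaks, and 3 of the 6 peaks without a counterpart were those at Dsp. The intervals treat peaks of 1 gene as independent, which they are not, as Perp and Pkp1 gave 17 of the 24 adult peaks.

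**Figure D3:**
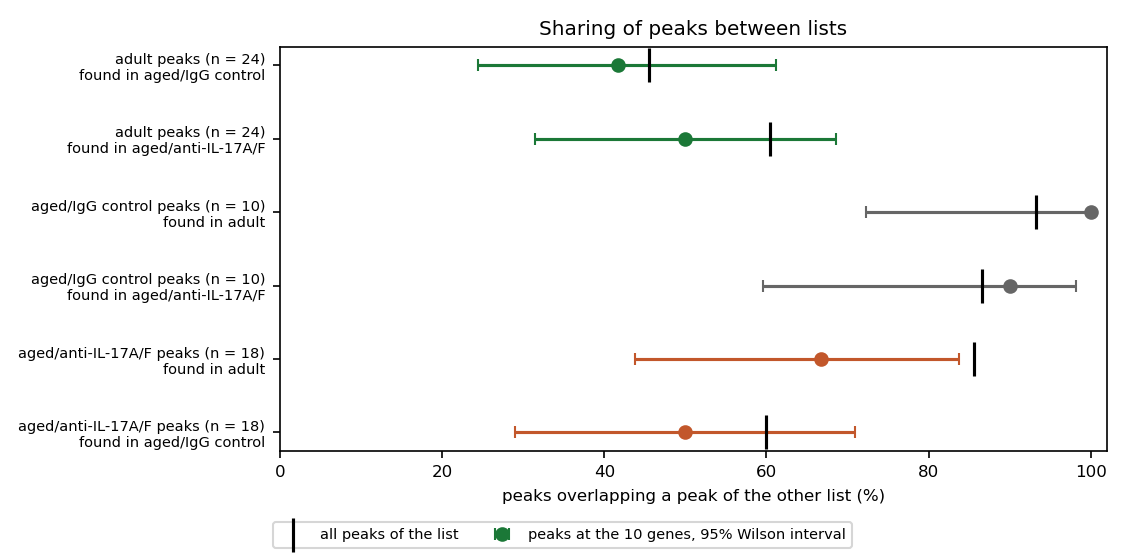
Share of the peaks at the 10 genes that overlap a peak of another list by at least 1 bp. The x axis is the share in percent, each row is 1 list set against another, circles with bars are peaks at the 10 genes with 95% Wilson intervals for counting error, and black ticks are all peaks of the list. The tick lies inside the interval in every row but that of aged/anti-IL-17 peaks found in adult.

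Strength was read in the same way. Had each adult peak at these genes been shared as often as all adult peaks of its own decile of fold enrichment, 8.64 of 24 would have overlapped a peak in aged/IgG, where 10 were counted. For adult peaks in aged/anti-IL-17 the sum was 12.8 where 12 were counted. For the aged/IgG peaks it was 9.23 of 10 in adult, where 10 were counted, and 8.41 of 10 in aged/anti-IL-17, where 9 were counted. For the aged/anti-IL-17 peaks it was 14.7 of 18 in adult, where 12 were counted, and 8.98 of 18 in aged/IgG, where 9 were counted. The median fold enrichment of the assigned peaks was 3.45 in adult, 3.58 in aged/IgG and 3.34 in aged/anti-IL-17, against 3.60, 3.80 and 3.69 over all peaks of these lists. The assigned peaks stood at median percentiles of 44.4, 41.2 and 38.3. At the 9 sites in all lists, fold enrichment was lower in aged/IgG than in adult at 5 of 9, against 80% of the 3502 adult peaks found in all lists. It was lower in aged/anti-IL-17 than in adult at 6 of 9 (67.3% of all) and lower in aged/anti-IL-17 than in aged/IgG at 4 of 9 (33.2% of all). With the doubted labels exchanged, it would be adult that was lower than aged/anti-IL-17 at 6 of 9 and lower than aged/IgG at 4 of 9. No common direction held over the 9 sites in any of these pairings.

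The NF-κB element stood within 100 bp of the summit in 2 of 24 adult peaks at these genes (8.33%, 2.32% to 25.9%), against 28.5% of all adult peaks. In aged/IgG it stood in 2 of 10 (20.0%, 5.67% to 51.0%), against 37.8%, and in aged/anti-IL-17 in 3 of 18 (16.7%, 5.84% to 39.2%), against 34.9%. The share over all peaks lay above the interval in adult and inside it in both aged lists. That adult value rests on the doubted label, since with the lists exchanged the shares would be 16.7% in adult and 8.33% in aged/anti-IL-17, and on 24 peaks of which Perp and Pkp1 gave 17. Given their deciles of fold enrichment, the sums of the shares were 5.86, 3.29 and 5.24 peaks. Over the whole length of the peak the element was found in 25%, 40.0% and 33.3% of the peaks at these genes, against 34.9%, 44.7% and 41.9% of all peaks. The distal Perp site and the upstream Pkp1 site carried it in every list, and these are the same genomic letters each time, not separate observations. A peak without the element lacks only these letters in this window.

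Other elements were searched in the same windows on both strands, and at these genes no match overlapped one to another element. TGANTCA, the AP-1 element, stood within 100 bp of the summit in 4 of 24, 2 of 10 and 3 of 18 peaks at these genes, against 13.2%, 14.1% and 14.5% of all peaks of adult, aged/IgG and aged/anti-IL-17. At Jup the match TGAGTCA at chr11:100398183-100398189 lay 30, 73 and 12 bp from the 3 summits. AACCNGTT, an element of grainyhead-like factors, was found in 1 adult peak, at the Perp site 29589 bp downstream, and in 0 peaks of the other lists, against 4.31%, 4.94% and 4.11% of all peaks. TTGCNNAA, an element of C/EBP factors, was found in 2 adult peaks, 1 at Perp and 1 at Pkp1, and in 0 of the others, against 9.81%, 9.57% and 9.63%. RRRCATGYYY (R a purine, Y a pyrimidine) is a half-site pattern of p63, the master regulator of the epidermal lineage. It was in 0 of these peaks and in 2.03%, 1.97% and 2.23% of all peaks. Other forms of the p63 element were not searched.

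Position relative to the start differed between the genes. Within 1 kb of a start lay 4 of 24 adult peaks, 4 of 10 aged/IgG peaks and 6 of 18 aged/anti-IL-17 peaks, against 36.9%, 33.2% and 33.7% of all peaks. Promoters of Jup, Pkp1, Pkp3 and Perp were occupied in all lists, and all 4 aged/IgG promoter peaks belonged to these genes. The 2 further promoter peaks of aged/anti-IL-17 were those at Dsp and Dsc3.

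By presence alone, the 10 genes fell into 5 of 8 possible patterns. Bound in all lists were 4 of them and 2387 protein-coding genes (11.4%), in adult and aged/anti-IL-17 2 of them and 905 genes (4.31%), in adult alone 1 of them and 1352 genes (6.44%), and in aged/anti-IL-17 alone 1 of them and 311 genes (1.48%). Unbound in all lists were 2 of them and 15727 genes (74.9%). The patterns with binding in aged/IgG but none in adult held 0 of the 10 genes and 81 and 45 genes in all. Over all genes, 2257 of the 4836 bound in adult (46.7%) were not bound in aged/IgG, and 905 of these (40.1%) were bound in aged/anti-IL-17. At the 10 genes the same counts were 3 of 7 and 2 of 3. With the doubted labels exchanged, 1216 of 3648 genes bound in adult (33.3%) were not bound in aged/IgG, and 905 of these (74.4%) were bound in aged/anti-IL-17, while the 10 genes again had 3 of 7 and 2 of 3.

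Genes of related structures were counted beside them. Among all protein-coding genes 23.0% were bound in adult, 12.9% in aged/IgG and 17.4% in aged/anti-IL-17. Of those bound in adult, 46.7% were not bound in aged/IgG. Of 9 other desmosome genes, 4 were bound in adult, 2 in aged/IgG and 4 in aged/anti-IL-17. Dsg1c and Dsg2, both desmogleins, were bound in all lists, with fold enrichments at their strongest peaks of 4.28, 3.24 and 3.67 for Dsg1c and 4.41, 4.59 and 4.34 for Dsg2. Ppl and Evpl, which encode the plakins periplakin and envoplakin of the cornified envelope, were bound in adult and aged/anti-IL-17 only. Their strongest peaks had 3.68 and 2.40 for Ppl and 2.39 and 2.39 for Evpl, the latter at percentile 3.57 of the adult list. Evpl is a gene the study itself chose to show from these libraries, so it is not independent evidence.

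Of 10 genes of corneodesmosome proteolysis, 6 were bound in adult, 3 in aged/IgG and 5 in aged/anti-IL-17. The shares of all protein-coding genes were 23.0%, 12.9% and 17.4%. Spink5, which encodes the kallikrein inhibitor LEKTI, had fold enrichments of 5.30, 3.98 and 4.38 in the 3 lists, Prss8, the serine protease prostasin, had 6.19, 4.31 and 4.96, and Klk8, a kallikrein, had 3.41, 3.27 and 2.92. St14, which encodes matriptase, was bound in adult with 4.77 and in aged/anti-IL-17 with 4.17, and Tmprss11f, a serine protease gene, with 2.86 and 3.42. Klk13 was bound in adult alone, with 3.30.

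Among 19 genes of adherens and tight junctions, 16 were bound in adult, 12 in aged/IgG and 11 in aged/anti-IL-17, and Ctnnd1, Marveld3, Nectin4 and Tjp1 were bound in adult but lacked a peak in aged/IgG. Of 12 genes of hemidesmosomes and the basement membrane, 9, 5 and 8 were bound, and Cd151, Col7a1, Itga6 and Lama3 differed in this way. For 8 regulators of desmosomal genes the counts were 7, 6 and 7, with Grhl1 as the gene that differed. Adult-bound genes unbound in aged/IgG were thus 4 of 16, 4 of 9 and 1 of 7, against 46.7% over all protein-coding genes. With the labels exchanged they would be 1 of 11, 3 of 8 and 1 of 7, against 33.3%. Each of these lists held 0 genes with a peak in aged/IgG that lacked one in adult. Such genes were few in general: of 2705 bound in aged/IgG, 81 were bound there alone and 45 there and in aged/anti-IL-17 only. This rests on the doubted label: exchanged, Afdn and Ocln, both of the adherens and tight junction list, would be such genes, and that list would have 11 bound in adult against 12 in aged/IgG. It rests on the longer adult list as well. With equal peak numbers and the labels kept, Afdn and Ocln were among the genes bound in aged/IgG but not in adult. All these counts are from lists of unequal length, and with equal peak numbers the 10 genes had 4 bound in adult, 4 in aged/IgG and 7 in aged/anti-IL-17. Of the other desmosome genes 3, 2 and 2 were then bound in the same order, and of the proteolysis genes 3, 3 and 4. Among adherens and tight junction genes the order of adult and aged/IgG turned, with 9, 12 and 10 bound. Hemidesmosome and basement membrane genes had 7, 5 and 5, and the regulators 7, 6 and 6. The differences between conditions were not tested.

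**Figure D4:**
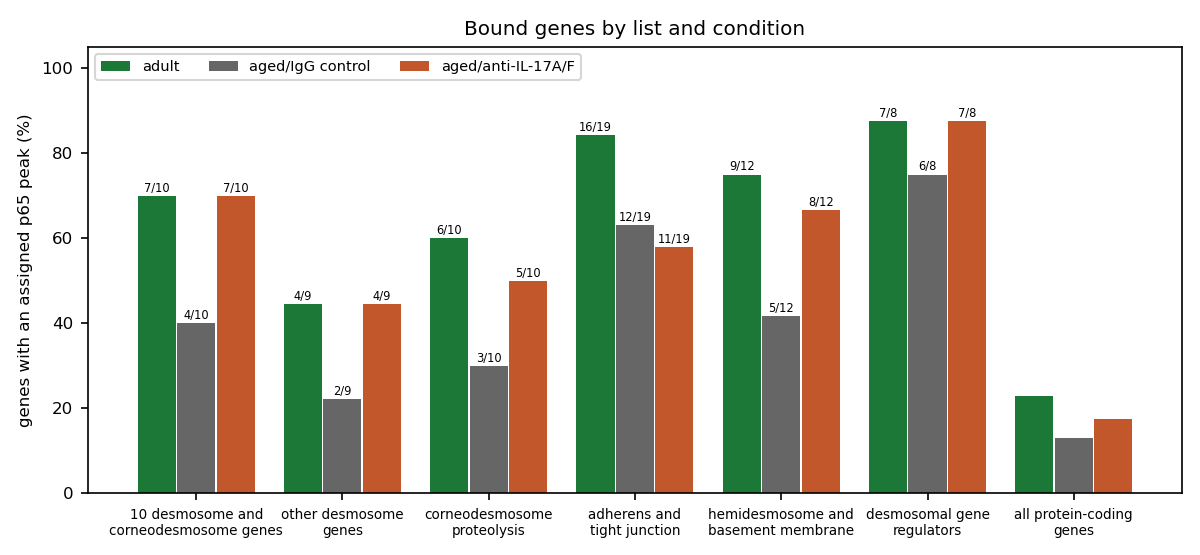
Share of genes with an assigned p65 peak in 6 gene lists and among all protein-coding genes. The y axis is the share in percent from 0, each bar is 1 condition of 1 pool of mice, and the counts above the bars are bound genes over genes in the list. The 10 desmosome and corneodesmosome genes show 7, 4 and 7 bound genes in adult, aged/IgG and aged/anti-IL-17, and with peak lists of unequal length the aged/IgG bar is lower than the adult bar in every gene list as labelled, though not for adherens and tight junctions (11 in adult against 12 in aged/IgG) if the adult and aged/anti-IL-17 labels are exchanged.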

How the data were processed

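p65 ChIP–seq was analysed as 3 peak lists, 1 per pool of 4 mice. The 3 input samples were not analysed here. Per the methods, the authors trimmed reads with Trimmomatic 0.36, used the Burrows–Wheeler aligner with mm10, merged the 4 mice, removed duplicates with SAMtools, reduced every pool to equal reads and ran MACS2 on it with a q value threshold of 0.01. The submitters' notes also name featureCounts and R 4.0.5. Whether inputs entered the peak calling is not stated. Merging removed the variation between mice, and downsampling does not equalize immunoprecipitation efficiency, which can change the number of peaks called. The deposited columns are a MACS2 score, a ratio of signal to local background (the authors' fold enrichment), the deposited −log10 of a p-value and of a q-value, and the summit offset. Strength was taken from fold enrichment, ranked within each list. How many reads a peak rests on is unknown.

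Peaks were assigned by midpoint to the nearest curated RefSeq start of GRCm38, compared between lists by a minimum overlap of 1 bp, and scanned for motifs up to 100 bp from the summit on either strand. Shares have 95% Wilson intervals, which cover counting error only. Background shares are over 21000 protein-coding genes or all peaks of a list. Python 3.11.15, numpy 2.4.6, pandas 2.3.3, scipy 1.17.1 and matplotlib 3.10.9 were used, and overlap, assignment and motif steps were tested on simulated data. The 10 genes, the other lists and all rules were chosen with earlier results of these data known. Genes were named by rule: the 10 genes, bound genes of the other desmosome and proteolysis lists, genes of the remaining lists bound in 1 of adult and aged/IgG, and nearest genes of peaks within 50 kb. Tnfaip3, Afdn and Ocln were named after their values were seen. Alternatives were stricter q thresholds, equal peak numbers, summits, other transcripts, windows, overlaps and motif settings. Exchanging the lists labelled adult and aged/anti-IL-17, and recounting the other gene lists at equal peak numbers and all genes under 3 of the alternatives, were added after the data were seen.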

Additional observations from a re-analysis of the deposited data

How the results depend on the processing

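Of 114 values of 16 results recomputed under other settings, 97 stayed within the bounds set for them and 17 moved further: a count had to stay within 1.5 times its reported value, and a share within its 95% interval. With each list cut to 4169 peaks by fold enrichment, adult had 4 bound genes, 9 assigned peaks and 13 peaks within 50 kb, aged/anti-IL-17 had 11 and 16 peaks, and 50% of the aged/IgG peaks overlapped an adult peak. Under a −log10 q minimum of 10, assigned peaks numbered 14 in adult and 10 in aged/anti-IL-17, and peaks within 50 kb 21 and 15. Bound genes then numbered 5, 4 and 6 in adult, aged/IgG and aged/anti-IL-17. Restricted to 10000 bp from a start, assigned peaks numbered 11, 6 and 8, and a window of 25000 bp left 19 adult peaks. With a looser element that fixes only the leading run of G and the closing C pair, 45.8%, 70.0% and 77.8% of the peaks at the 10 genes had a match, against 67.9%, 72.9% and 70.3% of all peaks. Fewer peaks or a looser pattern make up these settings by construction. Exchanging the adult and aged/anti-IL-17 lists moved 0 of 16 values beyond these bounds, although assigned peaks became 18 in adult and 24 in aged/anti-IL-17. Values of the aged/IgG list alone could not move under this exchange. Nor could they move under the cut to 4169 peaks, which is the length of that list. Such values count among the 97 that stayed. The bounds are also wide: a fall from 7 to 5 bound genes in adult stayed within them.

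No paired analysis was possible because each condition is 1 pool of mice without replicates, and leaving out a replicate was not possible either. Presence and absence at Dsp and Cdsn rest on peaks that drop out of adult under the q minimum of 10. Read depth per peak is unknown, and binding says nothing of expression, which was not measured in these files.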
